A study of Mus musculus with 18 samples.

Results

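Dystroglycan and the enzymes that glycosylate it were followed by RNA-Seq in the ventral dentate gyrus of adult male mice. The 5 genes were chosen by symbol: Dag1, which encodes dystroglycan, and the glycosyltransferase genes Pomt1, Pomt2, Pomgnt1 and Gyltl1b. They are 5 of the 34620 genes listed in the count files, and all 5 were among the 17421 genes with enough reads to be tested. Libraries were made from 3 groups of Swiss Webster males aged 8 to 12 weeks, with 2 libraries in each group, and the layer of granule cells was cut out of frozen sections. All of these males were WT for the serotonin 1A receptor gene. WT males came from a lineage bred in parallel, in which mothers and grandmothers were WT. F1 males were WT sons of mothers labelled 5HT1A-/+, mated with heterozygous males, and their grandmothers are labelled 5HT1A-/+ too. F2 males were sons of WT F1 females mated with WT males, so that the mother was WT and the grandmother 5HT1A-/+. The comparison asks whether a receptor deficit of the mother or grandmother goes with a lasting difference of expression in granule cells of genetically WT males. The mice came from at least 3 litters, and the sources used here do not say how many animals were pooled for a library, so p-values measure the spread between libraries, which may be partly technical.

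Dystroglycan is made as a single precursor and cut into an extracellular alpha subunit and a membrane-spanning beta subunit, which joins the cytoskeleton through the dystrophin complex. The alpha subunit binds laminins, agrin, neurexins and other matrix or synaptic proteins through a long sugar chain called matriglycan. That chain is built on O-linked mannose: POMT1 and POMT2 work together as a complex that attaches the mannose, POMGNT1 extends it on a separate type of branch, and further enzymes complete it with a repeat of xylose and glucuronic acid. Gyltl1b encodes an enzyme that can polymerize this repeat. Loss of these enzymes causes muscular dystrophies with brain malformation, and dystroglycan is found in the brain at astrocyte endfeet around vessels, in glia and at synapses of neurons.

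The libraries held from 26358165 to 33727936 reads that fell on genes. Uniquely aligned reads that did not lie wholly within annotated exons made up 17.7% and 20.7% for WT. They made up 13.8% and 12.2% for F1, and 13.9% and 17.4% for F2, and were highest in WT. All 6 markers fixed for granule cells (Prox1, Dsp, C1ql2, Calb1, Stxbp6 and Pdzd2) were present, with mean levels of at least 67.9 CPM (reads per 1000000 reads on genes, with library sizes scaled by TMM). Markers of other cell types were present too, and none of those fixed for CA fields and mossy cells, interneurons, oligodendrocytes, astrocytes, vessels or microglia was at 0 in any library. Of 6 interneuron markers, 1 was higher in F1 and 2 in F2, and of 6 markers of CA fields and mossy cells 1 was higher in F2 (0 by the quasi-likelihood test). Of all tested genes, 3.77% were called higher in F1 and 3.86% in F2. In bulk tissue, fewer cells of a type and less RNA per cell cannot be told apart.

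In both F1 and F2, Dag1 was higher than in WT and Pomt1 was lower, while Pomt2 and Pomgnt1 did not pass the test. Gyltl1b, which was close to the limit of detection, was lower in F1 and did not pass in F2. Adjusted p-values, written q, are from edgeR's exact test with adjustment by Benjamini and Hochberg over all tested genes, and a gene was called at q under 0.01. In F1, 1 of the 5 genes was called higher and 2 lower, where 3.77% of all tested genes were higher and 8.54% lower. In F2, 1 was called higher and 1 lower, where 3.86% were higher and 8.1% lower. Both comparisons use the same WT libraries and so are not independent of each other. The median log2 fold change of the 5 genes was -0.23 in F1 and -0.04 in F2, beside 0.01 and -0.0 over all tested genes. Between F2 and F1, where 0.74% of all tested genes were called, edgeR's exact test called 0 of the 5, with 0 at an unadjusted p under 0.05 and 0 by edgeR's quasi-likelihood test or DESeq2. By the exact test, 5671 of the 17421 tested genes had an unadjusted p under 0.05 in F1 and 5647 in F2. Between F2 and F1 it was 1506. The quasi-likelihood test called fewer genes than the exact test: 1 of the 5 in F1 and 1 in F2, Pomt1 in both.

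**Figure D1:**
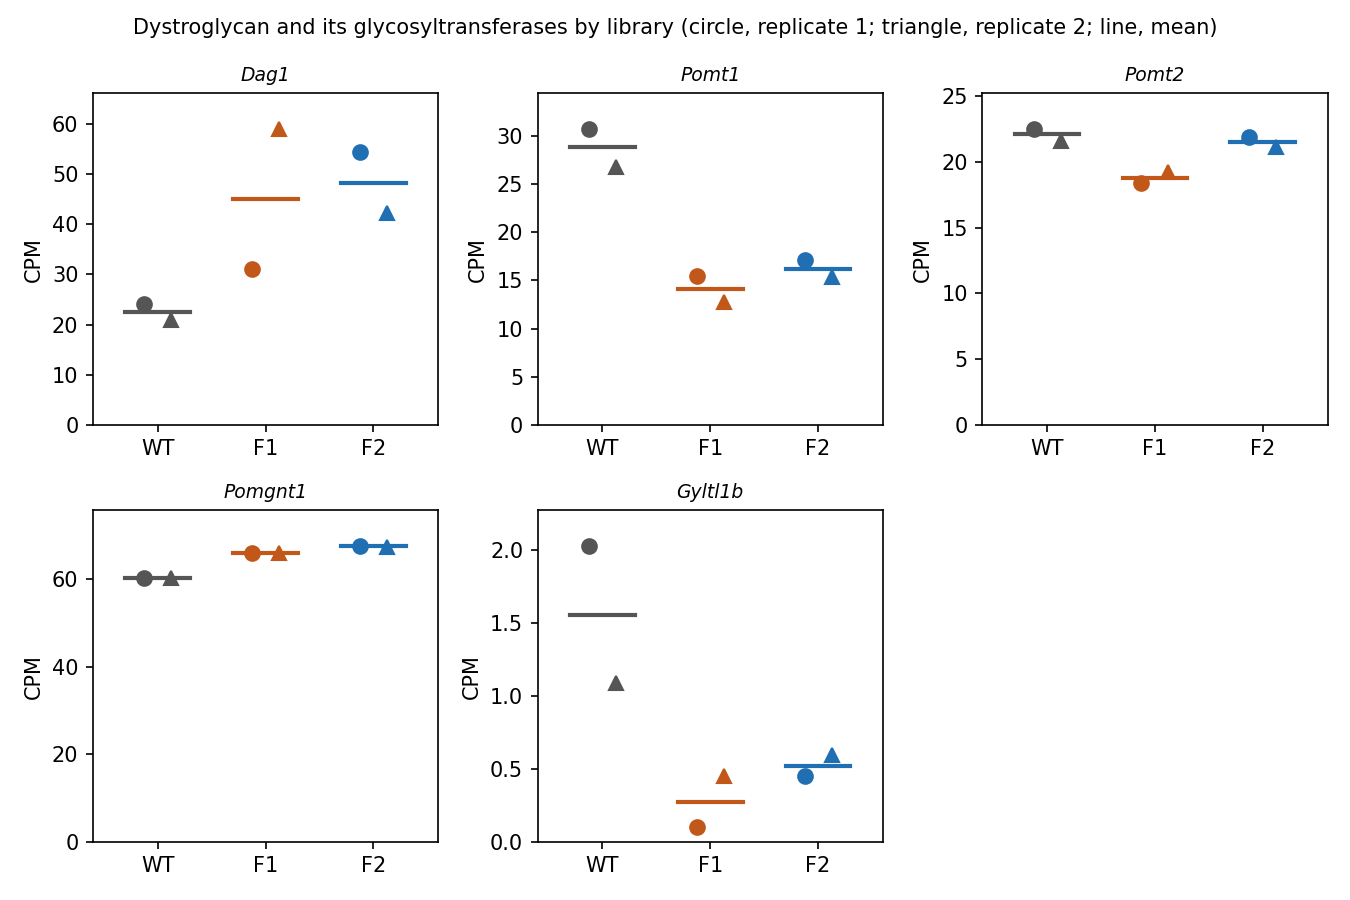
Expression of the 5 genes in CPM (y axis, from 0) in WT, F1 and F2, with circles for replicate 1, triangles for replicate 2 and a line for the mean of the 2 libraries. All F1 and F2 libraries lie above both WT libraries for Dag1 and below them for Pomt1 and Gyltl1b, and F1 replicate 1 of Dag1, at 31.1 CPM, lies apart from F1 replicate 2, at 59.0 CPM.

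Dag1, the substrate of the pathway, lies on chromosome 9 from 108108286 to 108166255 (mm9, minus strand). Its level was 24.1 and 20.9 CPM for WT, 31.1 and 59.0 CPM for F1, and 54.4 and 42.3 CPM for F2. Every F1 and F2 library was above both WT libraries, and the F1 libraries differed from each other by more than F1 replicate 1 differed from WT. The mean level of WT was 22.5 ± 2.22 CPM (SD, n = 2), that of F1 45.0 ± 19.8 CPM and that of F2 48.3 ± 8.57 CPM. Dag1 thus rose 2.0-fold in F1 (log2 fold change 1.0, SE 0.23, q = 0.000413) and 2.15-fold in F2 (log2 fold change 1.1, SE 0.23, q = 8.49e-05). The size in F1 rests on F1 replicate 2: without it the log2 fold change was 0.47 (q = 0.0813). The call was also lost in F1 without WT replicate 2 (q = 0.0291), and in F2 without WT replicate 2 (q = 0.0122) or F2 replicate 1 (q = 0.0243). It was not called by the quasi-likelihood test (q = 0.0165 in F1 and 0.011 in F2) or by DESeq2's Wald test (0.0619 and 0.0357).

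Summed markers of astrocytes, vessels, microglia and granule cells stood in the order of Dag1 within F1 and within F2, though not within WT. Interneuron markers, like those of oligodendrocytes, ran the other way, at 802 and 589 CPM for F1 and 679 and 751 CPM for F2. Markers of CA fields and mossy cells ran the other way within F1 only (277 and 187 CPM, with 299 and 288 CPM for F2). The 8 astrocyte markers summed to 2410 and 2640 CPM for WT, 2960 and 3590 CPM for F1, and 4020 and 3360 CPM for F2. Log2 fold changes of the 8 ran from Gjb6 (0.012 in F1 and 0.355 in F2) to Gfap (0.655 and 0.745), an intermediate filament gene of astrocytes. Gfap was not called in F1 (q = 0.0109 by the exact test). It had 190 and 197 CPM for WT, 222 and 387 CPM for F1, and 363 and 285 CPM for F2. Its libraries within F1 and within F2 stood in the order of Dag1. Of the astrocyte markers, 1 of 8 (Aldh1l1) was called higher in F1 and 5 of 8 in F2. For these and the markers below, the exact test called 3.77% of all tested genes higher in F1 and 3.86% in F2. The 8 had median log2 fold changes of 0.35 and 0.52, where Dag1 had 1.0 and 1.1. The quasi-likelihood test called 0 of the 8 in F1 and 1 in F2, and DESeq2 called 2 and 5. The 9 endothelial and pericyte markers summed to 190 and 211 CPM for WT, 225 and 289 CPM for F1, and 281 and 259 CPM for F2, with 2 called higher in F2, and 1 there by the quasi-likelihood test or DESeq2. In F1, edgeR's exact test called 0 of these 9, with 4 at an unadjusted p under 0.05, and the quasi-likelihood test and DESeq2 called 0. Microglial markers, 8 in all, summed to 124 and 125 CPM for WT, 147 and 169 CPM for F1, and 187 and 164 CPM for F2. Of these, 4 were called higher in F2 by edgeR's exact test, 0 by the quasi-likelihood test and 3 by DESeq2. In F1, edgeR's exact test, the quasi-likelihood test and DESeq2 called 0, and 4 had an unadjusted p under 0.05. Of the 17421 tested genes, 5671 had such a p in F1.

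The 8 oligodendrocyte markers had another order than Dag1, with 1120 and 2030 CPM for WT, 3060 and 2290 CPM for F1, and 1580 and 2970 CPM for F2. The exact test called 4 of these higher in F1 and 2 in F2, where it called 3.77% and 3.86% of all tested genes higher. The quasi-likelihood test and DESeq2 called 0 of the oligodendrocyte markers in either group. The 6 granule cell markers summed to 1080 and 1110 CPM for WT, 940 and 1160 CPM for F1, and 1460 and 1280 CPM for F2, and so had the order of Dag1 within F1 and within F2. None of the 6 was called by edgeR's exact test, the quasi-likelihood test or DESeq2. Unadjusted p was under 0.05 for 2 in F1 and 5 in F2, beside 5671 and 5647 of the 17421 tested genes. The part of these cell types in the change of Dag1, or of the other genes, was not tested.

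**Figure D2:**
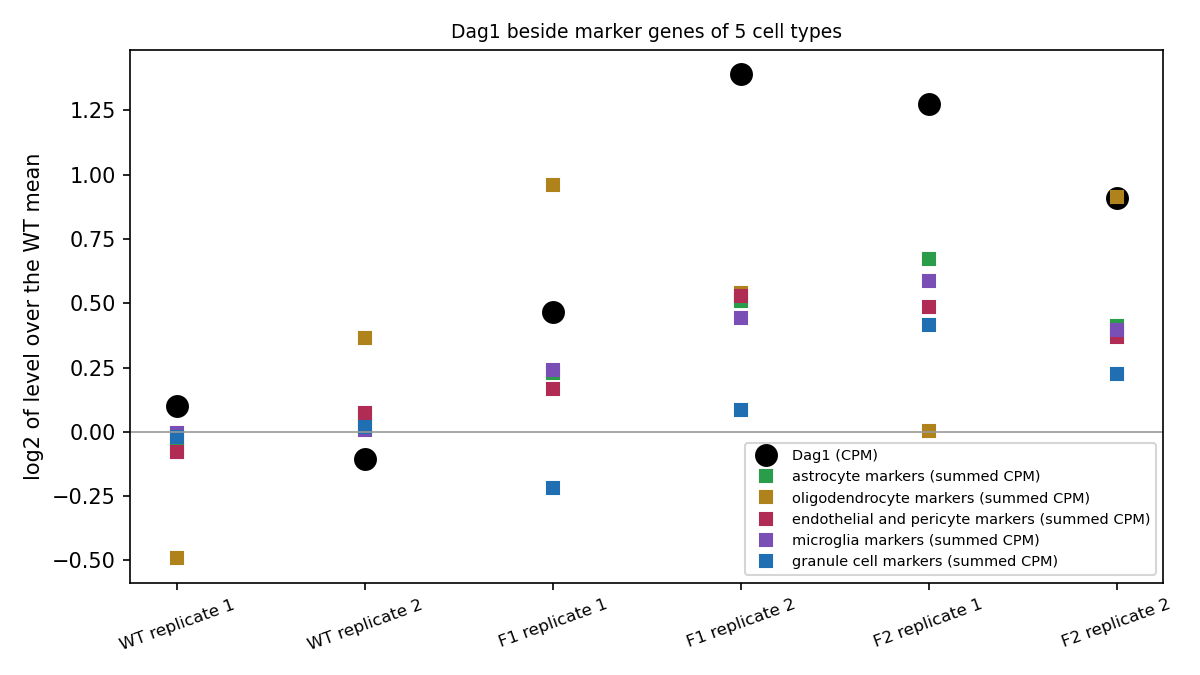
Level of Dag1 (black circles, CPM) and summed level of the markers of 5 cell types (squares, summed CPM) in each library (x axis), as the log2 of the level over the mean of the WT libraries (y axis). Dag1 is lower in F1 replicate 1 than in F1 replicate 2 and lower in F2 replicate 2 than in F2 replicate 1, as are astrocyte, vessel, microglial and granule cell markers, while the oligodendrocyte markers run the other way within both groups.

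Pomt1 encodes a subunit of the mannosyltransferase that starts the glycan, and lies on chromosome 2 from 32092110 to 32110525 (mm9, plus strand). WT had 30.7 and 26.8 CPM, F1 15.4 and 12.8 CPM, and F2 17.1 and 15.3 CPM. The F1 and F2 libraries were all well below both WT libraries. From 28.8 ± 2.77 CPM (SD, n = 2) in WT, Pomt1 fell to 14.1 ± 1.9 CPM in F1 (log2 fold change -1.03, SE 0.16, q = 3.37e-08) and to 16.2 ± 1.27 CPM in F2 (log2 fold change -0.83, SE 0.16, q = 1.66e-05). Of the 5 genes, Pomt1 alone was called in F1 under each of the 16 alternative settings, with q of at most 0.00101. In F2 it just missed the threshold without WT replicate 1 (q = 0.0104) or F2 replicate 2 (q = 0.0128), and was called under the others.

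Pomt2 encodes the partner subunit, and lies on chromosome 12 from 88447816 to 88488852 (mm9, minus strand). WT had 22.5 and 21.6 CPM, F1 18.4 and 19.2 CPM, and F2 21.9 and 21.1 CPM. The F1 libraries were below both WT libraries by a small margin, and the F2 libraries overlapped with WT. Neither comparison passed, with a log2 fold change of -0.23 in F1 (SE 0.14, q = 0.267) and of -0.04 in F2 (SE 0.14, q = 0.901). Per kilobase of exon, the ratio of Pomt1 to Pomt2 was 1.08 and 0.978 for WT, 0.662 and 0.524 for F1, and 0.618 and 0.574 for F2. By this length, RNA of the subunits was about equal in WT, and Pomt1 RNA was the lower one in every F1 and F2 library. The length is that of exons merged over all annotated transcripts, so which subunit stands higher depends on it. A fixed length does not affect the fall of the ratio from WT to F1 and F2. The ratio is given as a description and was not tested.

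For Dag1 and Pomt1, the called genes with a promoter entry, 250 bases before the start of transcription in RefSeq are shown, to set a rise and a fall beside the sequence from which each gene starts. The Dag1 bases, from the more upstream of its 2 listed starts, are chr9:108263959-108264208 on the minus strand, and the Pomt1 bases are chr2:32236390-32236639 on the plus strand, both in GRCm38.p6, a later build than the mm9 of the counts. Capitals mark matches on either strand to 5 motifs: the GC box GGGCGG, the CCAAT box CCAAT, the TATA box TATAAA, the E-box CACGTG, and the palindrome GCGCATGCGC, a form of the site of the factor NRF1.
Dag1: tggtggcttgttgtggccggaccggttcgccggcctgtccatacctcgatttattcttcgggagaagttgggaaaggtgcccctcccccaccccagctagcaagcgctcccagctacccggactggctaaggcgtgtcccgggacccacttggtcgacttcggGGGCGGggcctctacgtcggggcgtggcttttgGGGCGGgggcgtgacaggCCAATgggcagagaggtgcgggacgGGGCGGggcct
Pomt1: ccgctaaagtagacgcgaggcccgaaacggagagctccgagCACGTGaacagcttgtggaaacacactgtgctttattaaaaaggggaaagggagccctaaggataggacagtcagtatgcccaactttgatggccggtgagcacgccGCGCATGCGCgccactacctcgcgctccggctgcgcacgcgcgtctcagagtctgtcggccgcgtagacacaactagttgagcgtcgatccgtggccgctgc
The Dag1 bases hold 3 GC boxes and 1 CCAAT box and no other motif of the 5. The Pomt1 bases hold 1 E-box and 1 NRF1 palindrome, and no GC box, CCAAT box or TATA box. Of 32851 promoter windows of 300 bases, 35.7% hold a GC box, 37.4% a CCAAT box, 13.6% a TATA box, 7.15% the E-box and 0.971% the NRF1 palindrome. These matches describe the letters and say nothing of binding. Promoter entries were found for 4 of the 5 genes, all but Gyltl1b.

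Pomgnt1 encodes the enzyme that adds N-acetylglucosamine to the mannose, and lies on chromosome 4 from 115796445 to 115832454 (mm9, plus strand). Its levels were closely spaced, with 60.2 and 60.2 CPM for WT, 66.0 and 66.0 CPM for F1, and 67.6 and 67.4 CPM for F2. Both F1 and both F2 libraries were above WT, but the log2 fold changes were small, at 0.13 in F1 (SE 0.11, q = 0.448) and 0.16 in F2 (SE 0.11, q = 0.328), and did not pass. Exons of Pomgnt1 share 641 bases, or 11.7% of their length, with 1520402A15Rik on the other strand, and the library kit did not keep strand. The shared exon sequence was 127 bases with Gstz1 for Pomt2 and 4 bases with Uck1 for Pomt1, both on the other strand. No exon of Dag1 or Gyltl1b was shared with another gene of the annotation.

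Gyltl1b lies on chromosome 2 from 92205203 to 92212102 (mm9, minus strand) and was counted with 69 and 31 reads for WT, 3 and 14 reads for F1, and 12 and 16 reads for F2. These are 2.03 and 1.09 CPM for WT, 0.099 and 0.453 CPM for F1, and 0.449 and 0.594 CPM for F2. All F1 and F2 libraries were below both WT libraries, and the WT libraries differed widely from each other. Both F2 libraries, as well as both WT libraries, were above the 0.34 CPM that the filter on low counts asks of at least 2 libraries. Gyltl1b fell in F1 (log2 fold change -2.48, SE 0.54, q = 5.54e-05) and did not pass in F2 (log2 fold change -1.58, SE 0.49, q = 0.0101). At counts this low the size of the change was uncertain: leaving out a library gave values from -3.93 to -1.77 for F1 and from -1.94 to -1.05 for F2. The call in F1 was lost without WT replicate 1 (log2 fold change -1.96, q = 0.0261) or F1 replicate 1 (-1.77, q = 0.0121), and by the quasi-likelihood test (q = 0.0107). F2 passed without WT replicate 2 (q = 0.00551), F1 replicate 1 (q = 0.00267) or F1 replicate 2 (q = 0.00302), and F1 libraries also enter the estimate of the spread. It was further from the threshold without WT replicate 1 (q = 0.312), F2 replicate 1 (q = 0.239) or F2 replicate 2 (q = 0.0944), and by DESeq2 (q = 0.0913) or the quasi-likelihood test (q = 0.0486).

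Levels of different genes were compared per kilobase of exon. Exons were merged over all annotated transcripts of a gene, which can be longer than the transcripts present, so the order of genes depends on this length. The SD covers the libraries and not the length, and differences between genes were not tested. In WT, Pomgnt1 was the highest, at 11.0 ± 0.00229 CPM per kb (SD, n = 2). Dag1, Pomt1 and Pomt2 followed at 4.94 ± 0.488, 4.49 ± 0.432 and 4.36 ± 0.119 CPM per kb, with neighbours within their spread, and Gyltl1b was last at 0.299 ± 0.127 CPM per kb. In F1, Pomgnt1 led with 12.1 ± 0.00144 CPM per kb, before Dag1 with 9.87 ± 4.33, which did not differ beyond the spread of Dag1. Pomt2 had 3.72 ± 0.11, Pomt1 2.2 ± 0.297 and Gyltl1b 0.0529 ± 0.048 CPM per kb in F1. The order was the same in F2, with Pomgnt1 at 12.4 ± 0.0183 and Dag1 at 10.6 ± 1.88 CPM per kb, the latter again within its spread of Pomgnt1. Pomt2 had 4.25 ± 0.11, Pomt1 2.53 ± 0.198 and Gyltl1b 0.0999 ± 0.0197 CPM per kb in F2. By this length, Pomt1 stood below Pomt2 in both F1 and F2, by more than the SD of the libraries.

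**Figure D3:**
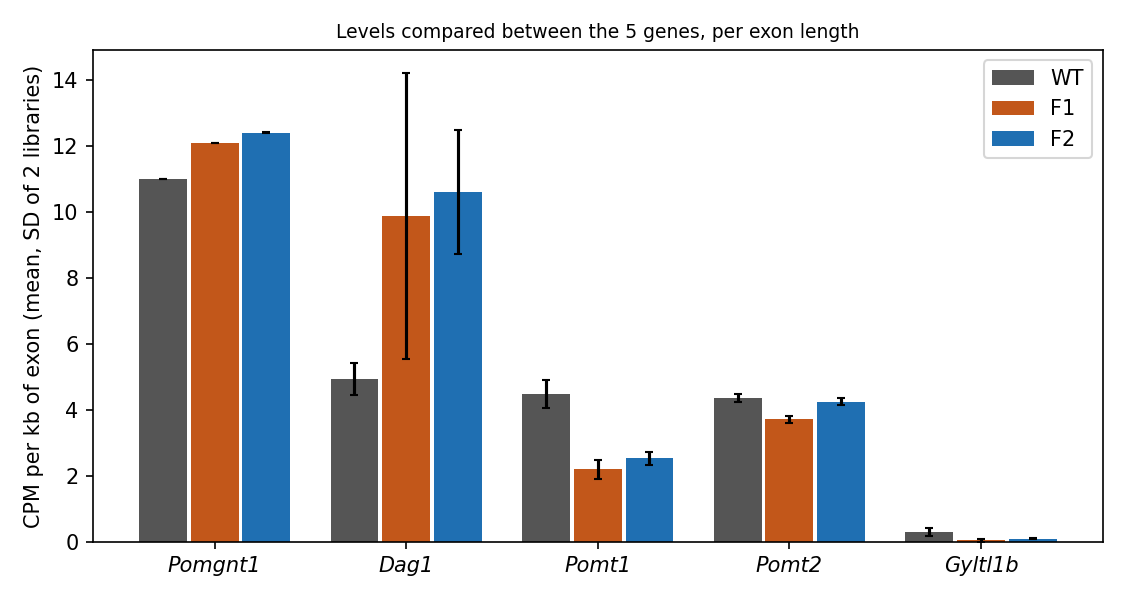
Mean level of each gene per kilobase of exon, with exons merged over all annotated transcripts (y axis, CPM per kb, from 0), in WT, F1 and F2. Error bars are 1 SD over 2 libraries. Pomt1 and Pomt2 are about equal in WT, at 4.49 and 4.36 CPM per kb, and differ in F1, at 2.2 and 3.72 CPM per kb, while Dag1 nears Pomgnt1 in F1 and F2.

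All 5 genes had F1 libraries that did not overlap with WT, and 4 of 5, all but Pomt2, had such F2 libraries. Of all tested genes, 60.4% did not overlap in F1 and 63.0% in F2, so that non-overlap with 2 libraries a group carries little weight. Across the 6 libraries, the genes with the log2 CPM pattern most like that of Dag1 were A2m, Cdc73 and March4, with Pearson correlations of 0.9977, 0.9969 and 0.9963. These are descriptions over 6 libraries that share their groups, and 956 of the 11609 genes compared had a correlation above 0.9 with Dag1.

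Of 6 other genes of enzymes that build the core and the matriglycan (Pomgnt2, Pomk, B3galnt2, Ispd, Tmem5 and B3gnt1), 1 was higher in F1. In F2, edgeR's exact test, the quasi-likelihood test and DESeq2 each called 0. Unadjusted p was under 0.05 for 2 there, beside 5647 of the 17421 tested genes. The median log2 fold change was 0.2 in F1 and 0.11 in F2, and 5 of 6 were above 0 in each. The gene called was B3gnt1, now also named B4gat1, whose product adds the glucuronic acid that primes the final chain. WT had 84.7 and 80.4 CPM, F1 117 and 115 CPM, and F2 103 and 105 CPM. The 3 groups did not overlap and F1 was highest, with a log2 fold change of 0.49 in F1 (SE 0.11, q = 0.000418) and 0.33 in F2 (SE 0.11, q = 0.0231), and no call between F2 and F1 (q = 0.855). The F1 call was lost by the quasi-likelihood test with a block for replicate number (q = 0.0147). It was also lost without WT replicate 2, where the log2 fold change was 0.46. Pomgnt2 encodes the enzyme that adds N-acetylglucosamine on the branch that carries matriglycan, and Pomk the kinase that phosphorylates the mannose of that branch. Pomgnt2 had log2 fold changes of 0.24 in F1 (q = 0.17) and 0.16 in F2 (q = 0.399), and Pomk of 0.07 (q = 0.774) and 0.11 (q = 0.624).

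Of the 6 genes that supply the mannose donor (Dolk, Dpm1, Dpm2, Dpm3, Gmppa and Gmppb), 1 fell in F1 and 1 in F2. It was Gmppa in both, the regulatory subunit gene of the enzyme that makes GDP-mannose. WT had 67.3 and 59.1 CPM of Gmppa, F1 37.7 and 35.9 CPM, and F2 39.3 and 35.2 CPM. The WT libraries stood clear of all others, with a log2 fold change of -0.78 in F1 (SE 0.13, q = 9.2e-08) and -0.76 in F2 (SE 0.13, q = 2.47e-07), called under each of the 16 alternative settings. The median of the list was -0.23 in F1 and -0.34 in F2. Dpm1 and Dpm2, subunits of dolichol-phosphate mannose synthase, had log2 fold changes of -0.33 (q = 0.113) and -0.31 (q = 0.0946) in F1, and of -0.27 (q = 0.218) and -0.42 (q = 0.0171) in F2. Exons of Dpm1 share 37.0% of their length with Adnp.

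Among 8 other genes of O-mannose enzymes in brain (Mgat5b, Chst10, B3gat1, B3gat2 and Tmtc1 to Tmtc4), 1 was lower in F1 and 1 higher in F2. B3gat1 encodes a glucuronyltransferase of the HNK-1 epitope. WT had 337 and 304 CPM of B3gat1, F1 240 and 242 CPM, and F2 264 and 256 CPM, without overlap with WT. It fell in F1 (log2 fold change -0.41, SE 0.12, q = 0.00363) and did not pass in F2 (-0.3, q = 0.0434). The F1 call was lost by the quasi-likelihood test (q = 0.0151), with no filter on low counts (q = 0.013), and without WT replicate 1 (q = 0.098), F1 replicate 1 (q = 0.0334), F1 replicate 2 (q = 0.0415) or F2 replicate 2 (q = 0.0104). Tmtc1 belongs to a family that attaches mannose to cadherins instead of dystroglycan. WT had 46.2 and 44.9 CPM of Tmtc1, F1 52.3 and 60.2 CPM, and F2 75.9 and 71.8 CPM. The F2 libraries were the highest, and Tmtc1 rose in F2 (log2 fold change 0.7, SE 0.12, q = 8.55e-07), while F1 did not pass (0.31, q = 0.0614), nor did F2 against F1 (0.39, q = 0.0832). Mgat5b, which branches O-mannose glycans, had log2 fold changes of -0.09 and 0.12, neither called.

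The dystrophin complex, through which dystroglycan reaches the cytoskeleton, was followed with 15 genes, all of them tested. In F1, edgeR's exact test, the quasi-likelihood test and DESeq2 each called 0. Unadjusted p was under 0.05 for 1 there, beside 5671 of the 17421 tested genes. In F2, 1 was higher. It was Sntb1, the beta-1 syntrophin gene, at the low level of 0.5 and 0.528 CPM for WT, 0.825 and 0.874 CPM for F1, and 1.35 and 1.34 CPM for F2. The groups did not overlap, with a log2 fold change of 1.38 in F2 (SE 0.38, q = 0.00266) and of 0.72 in F1 (SE 0.39, q = 0.225). The F2 call was lost by the quasi-likelihood test (q = 0.0181) and DESeq2 (0.0712), and without either WT library (q = 0.0748 and 0.0369) or either F2 library (q = 0.0562 and 0.0447). Dmd, the dystrophin gene, had log2 fold changes of -0.03 (q = 0.922) and 0.11 (q = 0.608), and Dtna, the alpha-dystrobrevin gene, of -0.06 (q = 0.764) and 0.14 (q = 0.446), and the signs of these small values turned when a library was left out, except that of Dtna in F2.

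Among 12 genes of proteins that bind dystroglycan through its glycan (the laminin alpha chains Lama1, Lama2, Lama4 and Lama5, and Agrn, Hspg2, Egflam, the neurexins Nrxn2 and Nrxn3 and the Slit genes Slit1 to Slit3), 2 fell in F1 and 1 in F2. Agrn encodes agrin, a proteoglycan of basement membranes and synapses. WT had 384 and 347 CPM of Agrn, F1 193 and 173 CPM, and F2 186 and 189 CPM. The WT libraries were far above the rest, and Agrn fell from 366 ± 26.4 CPM (SD, n = 2) to 183 ± 13.6 CPM in F1 (log2 fold change -1.0, SE 0.12, q = 1.82e-14) and to 188 ± 2.33 CPM in F2 (log2 fold change -0.96, SE 0.12, q = 2.02e-13). It was called in F1 and in F2 under each of the 16 alternative settings. Lama5 fell in F1, from 16.6 ± 0.0884 CPM to 9.92 ± 0.12 CPM (log2 fold change -0.74, q = 0.000126), and did not pass in F2, at 12.9 ± 0.172 CPM (-0.36, q = 0.0999). Nrxn2, a presynaptic adhesion gene, had 227 and 209 CPM for WT, 265 and 268 CPM for F1, and 272 and 292 CPM for F2. All F1 and F2 libraries were above both WT libraries, but neither comparison passed, with log2 fold changes of 0.29 (SE 0.12, q = 0.0551) and 0.37 (SE 0.12, q = 0.011). F2 passed by DESeq2's Wald test (q = 0.0045) and without F1 replicate 1 (q = 0.00712) or F1 replicate 2 (q = 0.00703), and was further from the threshold by the quasi-likelihood test (q = 0.0246) and without WT replicate 1 (q = 0.0378), WT replicate 2 (q = 0.125), F2 replicate 1 (q = 0.0504) or F2 replicate 2 (q = 0.147).

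Over the 5 lists together, 47 genes were tested, of which 1 was higher and 4 were lower in F1, and 2 were higher and 2 lower in F2. These counts are close to the shares of all tested genes, 3.77% higher and 8.54% lower in F1 and 3.86% higher and 8.1% lower in F2. The median log2 fold change of the 47 was 0.08 in F1 and 0.11 in F2.

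**Figure D4:**
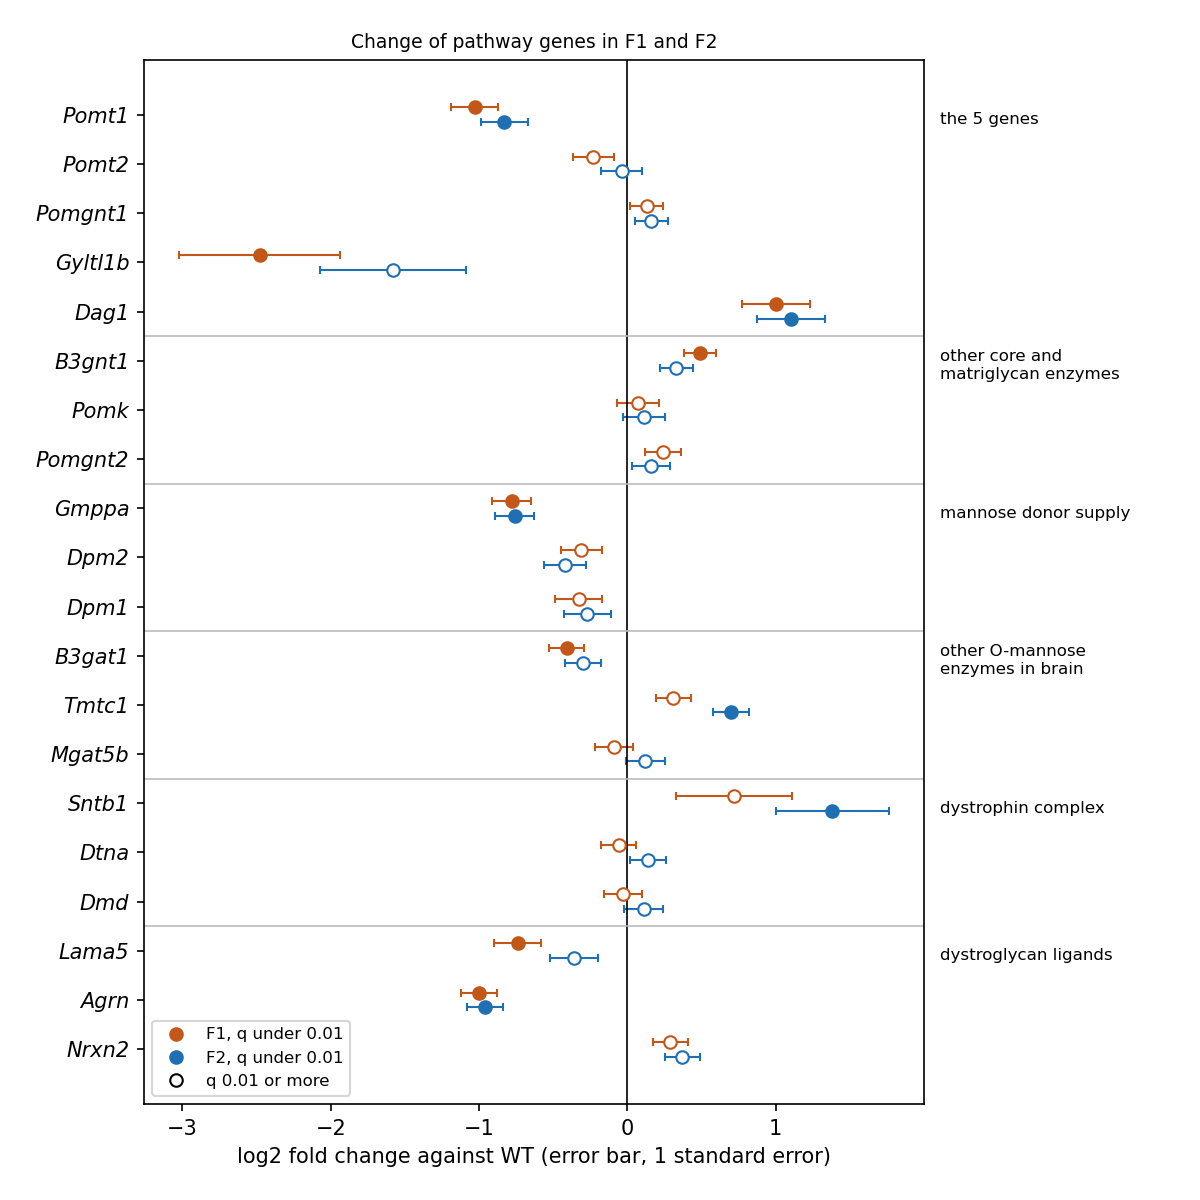
Log2 fold change against WT (x axis) of the 5 genes and of the named genes of the 5 pathway lists (y axis), in F1 (orange) and F2 (blue), with error bars of 1 standard error and filled circles for q under 0.01. Agrn, Pomt1 and Gmppa lie to the left of 0 and Dag1 to the right in F1 and in F2, while dystrophin (Dmd) and dystrobrevin (Dtna) lie near 0.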

How the data were processed

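RNA-Seq libraries, 6 in all, were grouped as WT, F1 and F2 by their titles, and the 12 bisulfite samples were not analysed here. The authors aligned single-end reads of 50 bases to mm9 (NCBIM37) with TopHat2, and deposited raw counts per gene symbol made with HTSeq in its intersection-strict mode. The submitters' processing notes give TopHat2 as version 2.0.2, while the published methods give another version. Reads on no feature (9.18% to 14.2% of records), ambiguous reads (0.891% to 1.09%) and reads aligned to several places (25.1% to 33.2%) stayed out of library sizes and tests. Counts were filtered with filterByExpr, scaled by TMM and tested in edgeR 4.0.16 (R 4.3.3) with its exact test, using tagwise dispersions estimated over the 3 groups. SE is the standard error of the log2 fold change, by the delta method from mean counts and dispersion. The procedure was also run on simulated counts, drawn with the same dispersion for every gene. Spread in the real counts differs between genes, so that run does not measure how reliable the calls here are. Replicates differed by more than sampling noise (chi-square per degree of freedom of 20 to 25). For genes with many reads, the number of libraries, more than their depth, limits precision. For genes with few reads, such as Gyltl1b, the counts limit it too. Positions and exon lengths are from GENCODE M1 (mm9), in which 32955 of 34620 symbols were found, and promoters are from RefSeq (GRCm38.p6). An exon length is that of all annotated exons of a gene, merged over its transcripts. Pomgnt2 and Pomk were found through RefSeq synonyms. The 5 genes and all lists were chosen with earlier results of these data known. Named are the 5 genes and, of each list, the genes at q under 0.01 in F1 or F2, made up to 3 by the most abundant, and for Dag1 the 3 most correlated genes of at least 5 CPM. Results of certain other genes are not reported here. Alternatives were DESeq2 1.42.0, the quasi-likelihood test of edgeR, tests with a replicate block, other settings of dispersion, scaling, filter and threshold, and leaving out each library. A block with crossed F2 numbers was added after seeing the data.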

Additional observations from a re-analysis of the deposited data

Results flagged for a closer look

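Slit2, a gene of the ligand list outside the rule for named genes and picked out after its values were seen, differed between the F1 and F2 effects. It was at 22.7 and 26.3 CPM in WT, 34.8 and 31.6 CPM in F1, and 19.5 and 23.0 CPM in F2, so that both F1 libraries were the highest. Its log2 fold change between F2 and F1 was -0.64 (standard error 0.15, adjusted p = 0.00468 by edgeR's exact test), with 0.44 in F1 against WT (adjusted p = 0.0225 by edgeR) and -0.20 in F2 against WT (adjusted p = 0.389 by edgeR). By edgeR's quasi-likelihood test the adjusted p of F2 against F1 was 0.0844. Without F1 replicate 1 it was 0.0923, without F2 replicate 1 0.609, and without F2 replicate 2 0.0208 by edgeR's exact test.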

How the results depend on the processing

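With 2 libraries a group, the counts of calls depend on the test and on single libraries, and the cause was not tested. Of the 5 genes, 3 were called in F1 by the exact test, 1 by edgeR's quasi-likelihood test, and 2 to 3 when a library was left out (2 without any 1 of the WT or F1 libraries). In F2, the 2 calls became 1 by the quasi-likelihood test, 1 by DESeq2 and 1 to 3 without a library (1 without WT replicate 1, F2 replicate 1 or F2 replicate 2). Between F2 and F1, 0 of the 5 were called under all 16 settings. Of the other pathway genes, the 5 calls in F1 became 8 at q under 0.05 and 4 to 5 without a library, the 4 in F2 became 11 at q under 0.05 and 3 to 6 without a library, and the 1 between F2 and F1 became 2 at q under 0.05, 0 by the quasi-likelihood test and 0 to 2 without a library. Over all genes, the 2144 calls in F1 became 3623 at q under 0.05, 1029 by the quasi-likelihood test and 988 to 2043 without a library. The 2084 in F2 became 3606, 997 and 703 to 2585, and the 129 between F2 and F1 became 230, 2 and 52 to 223. Small changes turned sign when a library was left out: Pomk ranged from -0.03 to 0.2 in F1 (-0.03 without WT replicate 2), Mgat5b from -0.22 to 0.06 in F1 and -0.01 to 0.27 in F2, Dtna from -0.13 to 0.02 in F1, and Dmd from -0.14 to 0.10 in F1 and -0.04 to 0.26 in F2.

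Differences between replicates 1 and 2 were not shared between groups: their correlation was -0.0269 for F1 with WT, -0.083 for F2 with WT and -0.182 for F2 with F1. This does not show whether libraries of the same number were prepared together. With the replicate block, the quasi-likelihood test called 1 of the 5 genes, 3 other pathway genes and 848 genes in all in F1. It called 758 in all in F2, and 0 other pathway genes and 9 in all between F2 and F1. Of the exact test's calls in F1, it lost Dag1 (q = 0.0181), Gyltl1b (0.0128), B3gnt1 (0.0147) and B3gat1 (0.036). In F2 it lost Sntb1 (0.031). A block with the F2 numbers crossed, in a likelihood-ratio test, called 9 other pathway genes in F2, and 2 of them and 233 genes in all between F2 and F1.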
